A study of Mus musculus with 24 samples.

Results

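A set of 9 genes whose products restrain mTOR was followed through 8 B16-F10 melanoma cell lines: the sestrins Sesn1, Sesn2 and Sesn3, the arginine sensor Castor1, the mTOR-binding inhibitors Deptor and Akt1s1, the stress-induced inhibitor Ddit4, and the tuberous sclerosis genes Tsc1 and Tsc2. They were chosen by name, and all 9 had a row among the 12010 genes of the deposited table, so none was lost to a filter on low values. B16-F10 is a mouse melanoma line, and the cells used here (B16-F10-luc2) carried luciferase. The lines were the parental cells, the MITF KO, the TFE3 KO, the TFEB KO, the TFEB/TFE3 DKO, the MITF/TFE3 DKO, the MITF/TFEB DKO and the TKO, which lacks MITF, TFEB and TFE3. All were kept in the same serum-containing medium with no other treatment. The MITF KO carries a frameshift in Mitf and was made earlier. From a minor band on the MITF blot, the paper proposes that a low level of truncated MITF may remain in it. TFEB and TFE3 were removed with CRISPR-Cas9 from the parental cells and from this MITF KO, so all lines without MITF share the same loss of MITF. Cells were cloned afterwards, so each KO line is taken as 1 clone, and the effect of a gene and that of its clone cannot be told apart. Each line had 3 libraries. Nothing in the labels says that these came from separate cultures, so p-values measure only the spread between these libraries, which may be technical.

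mTORC1 is a kinase complex at the lysosome surface that drives protein synthesis and growth when amino acids and growth factors are plentiful. Amino acids act through the Rag GTPases, which the GATOR1 complex switches off. GATOR2 restrains GATOR1, and the sestrins and CASTOR1 bind GATOR2 when leucine or arginine is scarce. Growth factors act through the GTPase RHEB, which the TSC complex of TSC1 and TSC2 switches off. REDD1, the product of Ddit4, keeps the TSC complex active under stress, whereas DEPTOR and PRAS40, the product of Akt1s1, bind the mTOR complexes themselves. MITF, TFEB and TFE3 are related transcription factors that bind E-box sequences. TFEB and TFE3 are held in the cytoplasm by mTORC1, and MITF is the lineage factor of melanocytes.

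Reads came from the 3′ ends of poly(A) transcripts and did not scale with gene length, so that read counts scaled to library size (CPM) compare levels between genes as well as between lines. The libraries held 18300902 to 26667877 reads on genes. Tfeb ran from 2.06 to 5.27 CPM in the 12 libraries without TFEB against 7.87 to 22.7 in the others, and Tfe3 from 8.01 to 21.7 against 31.1 to 62.5. Mitf transcript persisted in the lines without MITF (326 to 1470 CPM, against 646 to 903), where a frameshift can leave the mRNA in place, so its level checks nothing. All 8 melanocyte markers were measured, with a summed level of 15926 to 40700 CPM per library, against at most 53.9 CPM for the sum of any of the immune, endothelial, epithelial and fibroblast lists, so the labelled cell type held. Of these 8 melanocyte markers, which include Mitf, 7 were lower than in parental cells and 1 higher in the TKO, and likewise in the MITF/TFEB DKO. Of all genes 27.9% and 27.3% were lower in these lines. In the MITF KO 4 markers were higher and 1 lower, where 20.1% of all genes were higher. In the MITF/TFE3 DKO 3 were higher and 2 lower, where 20.2% of all genes were higher. The part of the melanocyte markers in any result below was not tested. Of the 6 fibroblast markers 3 were measured (Col1a1, Col1a2 and Pdgfrb), and their sum was 11.4 to 15 CPM in parental cells, 35.2 to 44.9 in the MITF KO, 18.6 to 20.5 in the MITF/TFE3 DKO, 40.5 to 53.9 where TFEB was lost with MITF and 25 to 27.1 in the TKO, with 2, 3, 3 and 3 of them higher than in parental cells by the test used below. In the KO lines with MITF the fibroblast sum was also above parental cells. It was 20.2 to 25.8 CPM in the TFE3 KO, 18.7 to 19.6 in the TFEB KO and 17.4 to 20.8 in the TFEB/TFE3 DKO. Of the 3 fibroblast markers, 1, 1 and 2 were higher in these lines. Of the 4 endothelial markers only Pecam1 was measured. It fell in all 4 lines without MITF, by 1.80 to 3.09 (log2), to at most 2.03 CPM against 7.73 to 8.59 in parental cells, and in the TFE3 KO by 1.53. Pecam1 rose in the TFEB KO by 0.75 (10.9 to 17.6 CPM) and in the TFEB/TFE3 DKO by 1.64 (25.5 to 31.6 CPM). The sum of the epithelial markers measured (Cdh1 and Krt14) was 0.899 to 1.41 CPM in parental cells. It was 7.72 to 9.84 in the MITF/TFEB DKO and 16.4 to 19.7 in the TKO, where 1 marker was higher and 1 lower. The immune sum (Cd68 and Lyz2) was 0.225 to 1.77 CPM in parental cells, 3.37 to 5.12 in the MITF/TFEB DKO and 3.64 to 4.52 in the TKO. The part of all these shifts in the results was not tested either. In bulk libraries, fewer cells with a transcript and less of it per cell cannot be told apart.

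The DNA upstream of 3 of the genes is shown because they followed the loss of the factors in different ways: Sesn2 and Deptor rose on loss of MITF alone and did not pass as higher where TFEB was also gone (nor did Sesn2 where TFE3 was also gone), whereas Tsc1 fell in 3 of the 4 lines without MITF. Each line gives the 250 bases before the annotated start of the canonical transcript, 5′ to 3′ on the gene's own strand, in the mouse build GRCm39 with GENCODE annotation (mm39, the authors' build). Capitals mark the E-box CACGTG.
Sesn2, chr4:132237816-132238065, minus strand: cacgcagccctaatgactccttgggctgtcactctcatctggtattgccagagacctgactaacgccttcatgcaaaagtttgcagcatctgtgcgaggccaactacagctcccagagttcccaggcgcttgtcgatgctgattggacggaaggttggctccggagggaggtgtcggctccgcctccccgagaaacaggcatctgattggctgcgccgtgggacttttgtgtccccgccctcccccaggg
Deptor, chr15:54975460-54975709, plus strand: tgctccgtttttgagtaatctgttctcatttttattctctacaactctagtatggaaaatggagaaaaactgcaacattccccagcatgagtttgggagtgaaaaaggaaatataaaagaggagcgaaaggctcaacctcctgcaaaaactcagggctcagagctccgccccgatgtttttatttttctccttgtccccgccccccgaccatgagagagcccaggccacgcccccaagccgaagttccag
Tsc1, chr2:28530811-28531060, plus strand: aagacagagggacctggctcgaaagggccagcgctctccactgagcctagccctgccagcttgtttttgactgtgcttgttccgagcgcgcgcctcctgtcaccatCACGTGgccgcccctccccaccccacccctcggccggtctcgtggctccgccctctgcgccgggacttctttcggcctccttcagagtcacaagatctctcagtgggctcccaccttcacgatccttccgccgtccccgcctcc
The search covered 6 motifs on both strands, from 250 bases before to 50 after the start: the E-boxes CACGTG and CATGTG, their 8-base forms TCACGTGA, TCACGTGG and TCATGTGA, which overlap them, and TTGCATCA, an element bound by ATF4. Of the 9 genes, Tsc1 held CACGTG, at position −144 from its start and inside the longer TCACGTGG, and Castor1 held CACGTG at position −142. CACGTG was present in 10.3% of 11081 such promoters of the measured genes, and TCACGTGG in 2.44%. None of the 9 windows held CATGTG, which 8.66% of promoters did.

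In the wider window of 1000 bases on either side of the start, Deptor held CATGTG at position −866, a motif found in 53.3% of such windows. Sesn2 held TTGCATCA in an intron, 564 bases after the start, a motif found in 3.91% of windows. Akt1s1, Castor1 and Tsc2 also held CACGTG or CATGTG outside the nearer window, and Tsc2 held TTGCATCA. In Tsc2 the CACGTG lay inside TCACGTGG, read on the opposite strand, in an exon 204 bases after the start. TCACGTGG was found in 6.24% of windows. The paper reports, from ChIP-seq in a human melanoma line, that MITF, TFEB and TFE3 bind Sesn2 at TCACGTGG and Deptor at TCATGTGA. Neither motif was found in the mouse windows of these genes. The mouse positions matching the human sites were not looked up. Whether they lie outside the windows or differ in sequence was therefore not tested. The short contexts of the matches in Castor1, Deptor and Sesn2 are shown here with the matched letters in capitals. They describe these windows and say nothing of binding in these cells.
Castor1, chr11:4167945-4167972, plus strand: accataaagccCACGTGcgagcctggag
Deptor, chr15:54974833-54974860, plus strand: ttgtgagccacCATGTGgttactgggat
Sesn2, chr4:132237233-132237262, minus strand: tagggctagggTTGCATCAactgcagcctc

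Of the 9 transcripts Deptor was the most abundant, at a mean of 257 CPM over the 24 libraries, above 93.7% of measured genes, and Ddit4 followed at 119 CPM. Tsc1 (29.8 CPM), Tsc2 (25.2 CPM), Akt1s1 (12.7 CPM) and Sesn3 (12.5 CPM) were intermediate. Sesn2 (5.55 CPM), Sesn1 (5.19 CPM) and Castor1 (4.54 CPM) were low. The lowest library held 48 reads of Sesn2 and 49 of Sesn1, so that counting alone gives an error of about 14.4% and 14.3% there, against 1.69% for the lowest Deptor library. Ddit4 varied most between lines, with a 6.95-fold ratio of its highest to its lowest line mean, followed by Sesn2 (4.14-fold), Deptor (2.46-fold) and Sesn1 (2.33-fold). Tsc2 varied least, at 1.24-fold.

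**Figure D1:**
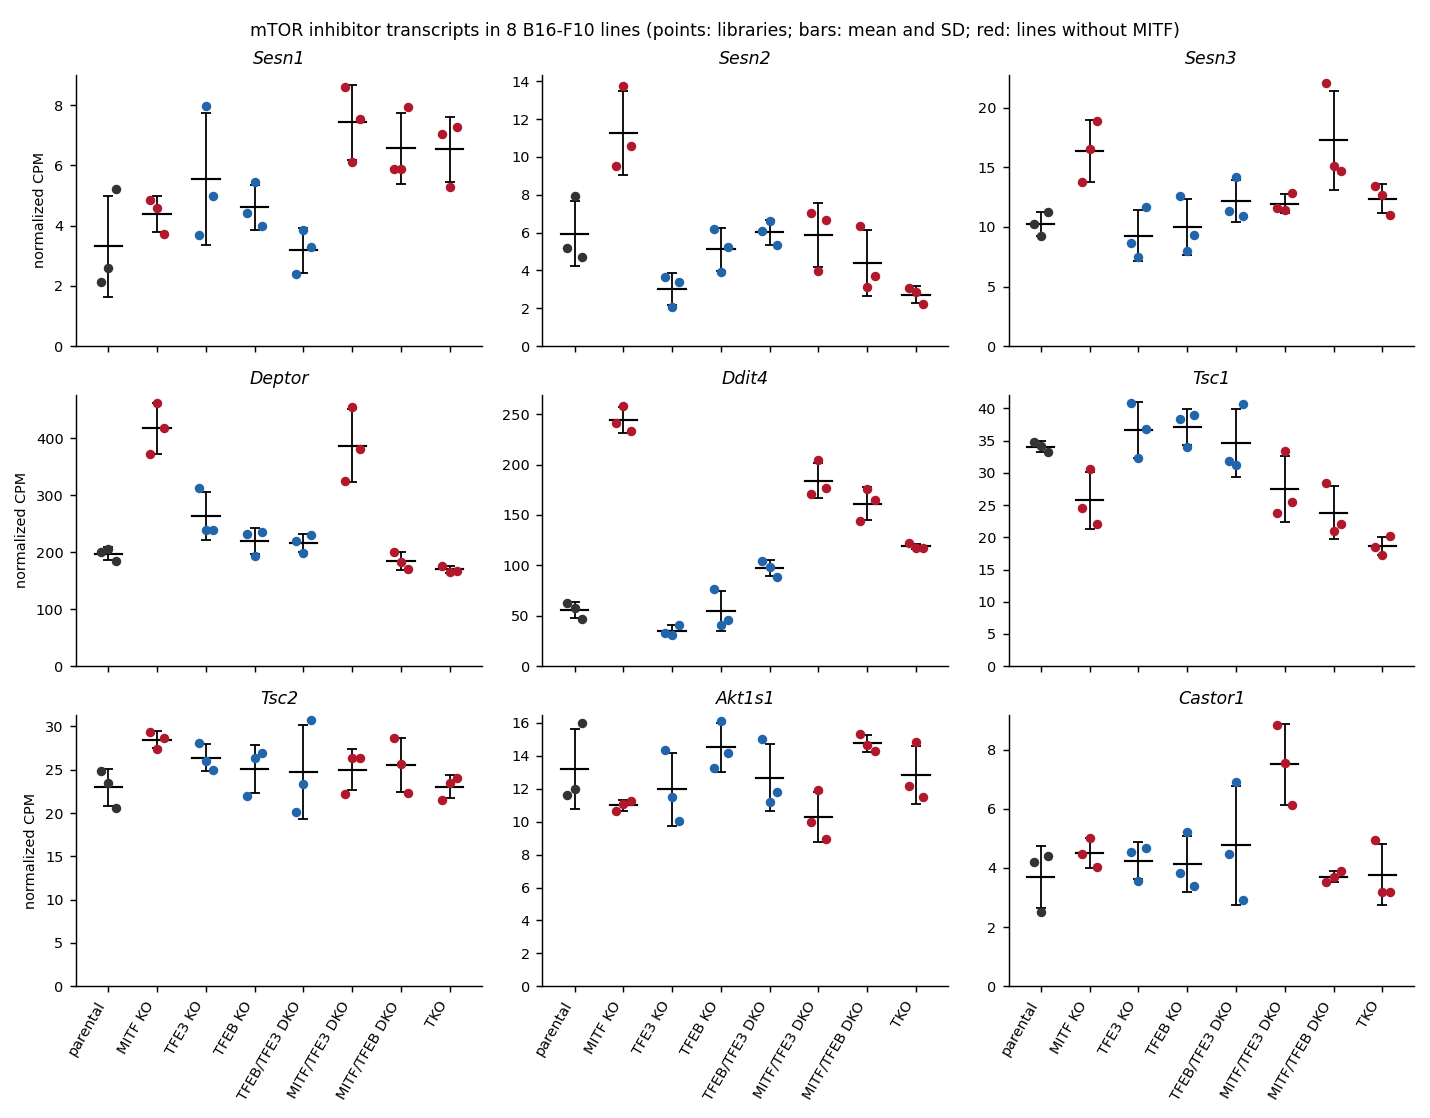
Normalized CPM (linear axes from 0) of the 9 mTOR inhibitor genes in the 8 lines on the horizontal axis; points are libraries, horizontal bars the mean and error bars the SD (n = 3), with parental cells in black, KO lines with MITF in blue and lines without MITF in red. Ddit4 lies between 117 and 258 CPM in every line without MITF against 30.6 to 105 CPM in the others, and Deptor is high in the MITF KO and the MITF/TFE3 DKO.

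Against parental cells, 21 of the 63 tests of 9 genes in 7 lines passed at an adjusted p under 0.05 (limma on log2(CPM + 1), Benjamini-Hochberg over all 12010 genes). In the MITF KO, 5 of the 9 genes passed, 4 higher and 1 lower, where 37.8% of all genes passed (20.1% higher and 17.8% lower). In the TFE3 KO 3 passed (background 12.3%), in the TFEB/TFE3 DKO 1 (8.81%), and 4 passed where MITF was lost together with TFE3 (41.9%), with TFEB (56.1%) or with both (56.2%). In the TFEB KO 0 passed (4.84%), with 0 also at an unadjusted p under 0.05 and 0 by edgeR's quasi-likelihood test. The share of the 9 genes that passed was near or below the background in the 3 lines that lack MITF and a second factor. In the MITF KO the median log2 change of the 9 was 0.38 against 0.00 over all genes, and in the TKO it was 0.01 against 0.01.

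**Figure D2:**
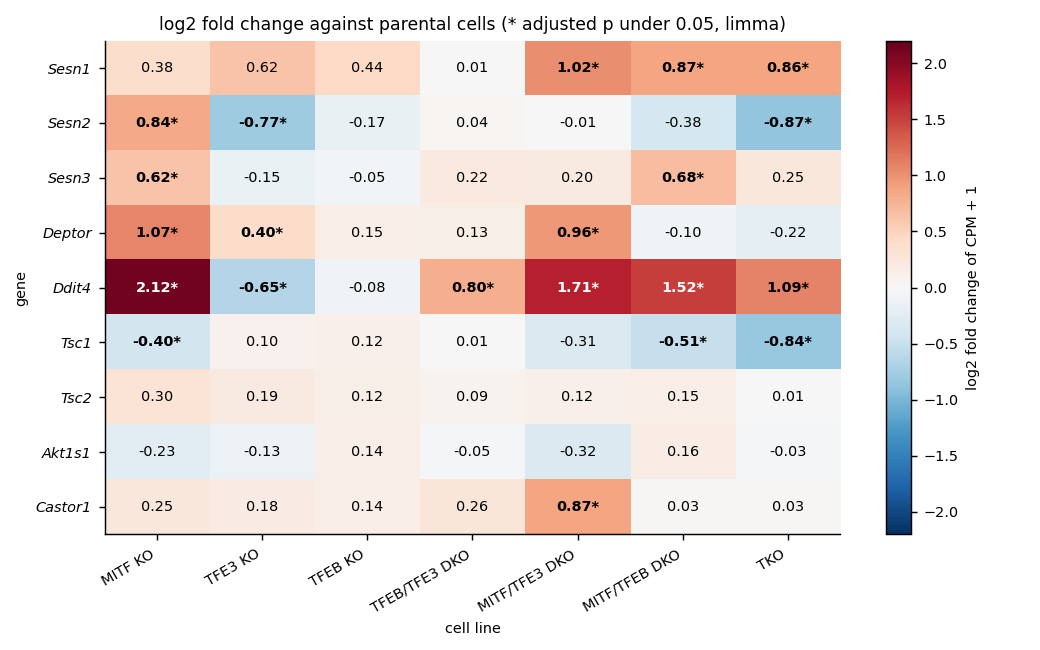
Log2 fold change of CPM + 1 against parental cells for the 9 genes (rows) in the 7 KO lines (columns), with red for higher and blue for lower; bold values with an asterisk passed an adjusted p of 0.05 (limma, 3 libraries a line). Ddit4 passed in 6 of 7 lines, Sesn2 passed upwards in the MITF KO and downwards in the TFE3 KO and the TKO, and neither Tsc2 nor Akt1s1 passed in any line.

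Sesn2, which encodes a leucine-binding sestrin, was highest in the MITF KO and lowest in the TKO. Its 3 libraries read 5.18, 7.91 and 4.72 CPM in parental cells, 9.51, 13.8 and 10.6 in the MITF KO, and 3.10, 2.85 and 2.24 in the TKO. The 3 groups did not overlap. Sesn2 rose by 0.84 ± 0.23 (log2, SE) in the MITF KO (adjusted p = 0.0065) and fell by 0.87 ± 0.23 in the TKO (adjusted p = 0.0028). The MITF/TFE3 DKO, at 7.06, 3.96 and 6.67 CPM, and the MITF/TFEB DKO, at 6.35, 3.11 and 3.70 CPM, overlapped with parental cells. For the latter this rested on replicate 1: the difference from parental cells was −0.38 and did not pass, and without that replicate it was −0.63 (adjusted p = 0.030). Against the MITF KO all lines that lacked a further factor were lower. The difference was −0.85 for the MITF/TFE3 DKO (adjusted p = 0.0065), −1.22 for the MITF/TFEB DKO (adjusted p = 0.00015) and −1.71 for the TKO (adjusted p = 2.2e-06). The background for these comparisons was 37.7%, 49% and 50% of genes. The MITF KO stood above every other line with no overlap of libraries, and no 2 neighbours further down the order of line means were separated.

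In cells that kept MITF, Sesn2 was low in the TFE3 KO, at 3.64, 2.08 and 3.41 CPM, below all 3 parental libraries. The change of −0.77 ± 0.23 passed with an adjusted p of 0.032. The call was lost without parental replicate 1 (−0.84, adjusted p = 0.054), parental replicate 2 (−0.58, adjusted p = 0.18) or TFE3 KO replicate 2 (−0.59, adjusted p = 0.19), and when limma was fitted to the 6 libraries of these lines alone (adjusted p = 0.11). In the TFEB/TFE3 DKO the level was back at 6.07, 6.62 and 5.34 CPM, higher than in the TFE3 KO by 0.81 ± 0.23 (adjusted p = 0.013, background 28.5%). That call was lost without TFE3 KO replicate 2, at 0.63 (adjusted p = 0.09). Loss of MITF on top of TFE3 raised Sesn2 by 0.76 ± 0.23 (adjusted p = 0.010, background 45%), which did not pass without TFE3 KO replicate 2 (0.58, adjusted p = 0.07) or MITF/TFE3 DKO replicate 1 (0.63, adjusted p = 0.056). In the TKO, by contrast, Sesn2 lay 0.91 ± 0.23 below the TFEB/TFE3 DKO (adjusted p = 0.0019, log2, background 57.9%).

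Sesn1, a sestrin gene known as a target of p53, was highest in the 3 lines that lack MITF and a second factor. The libraries read 2.11, 2.59 and 5.21 CPM in parental cells and 8.6, 6.12 and 7.54 in the MITF/TFE3 DKO. The MITF/TFEB DKO read 5.88, 5.88 and 7.92, and the TKO read 7.03, 5.28 and 7.27. All 9 of these KO libraries were above the highest parental library, by a small margin in the TKO. Sesn1 rose by 1.02 ± 0.24 in the MITF/TFE3 DKO (adjusted p = 0.0013), by 0.87 ± 0.24 in the MITF/TFEB DKO (adjusted p = 0.0033) and by 0.86 ± 0.24 in the TKO (adjusted p = 0.0035). In the MITF KO it read 4.85, 4.58 and 3.70 CPM, within the parental range, with a change of 0.38 (adjusted p = 0.21). Parental replicate 3 was the highest of its group, and without it the MITF KO passed (0.68, adjusted p = 0.027), as did the TFE3 KO (0.92, adjusted p = 0.012, against 0.62 and 0.091 with it). The MITF/TFE3 DKO exceeded the MITF KO by 0.64 ± 0.24 (adjusted p = 0.035), a call lost without MITF KO replicate 2 or 3 or MITF/TFE3 DKO replicate 1 or 3 (0.54 to 0.67, adjusted p from 0.067 to 0.13). No pair of neighbouring lines in the order of Sesn1 means was free of overlap.

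Sesn3, a sestrin gene known as a target of FOXO factors, carried the largest share of the summed sestrin reads in every line, from 47.7% ± 5.27 (SD, n = 3) in the MITF/TFE3 DKO to 60.9% ± 4.53 in the MITF/TFEB DKO. It read 10.3, 9.23 and 11.3 CPM in parental cells, 13.7, 16.5 and 18.9 in the MITF KO, and 22, 15.1 and 14.7 in the MITF/TFEB DKO. Both KO groups lay above all parental libraries. The changes were 0.62 ± 0.18 in the MITF KO (adjusted p = 0.0078) and 0.68 ± 0.18 in the MITF/TFEB DKO (adjusted p = 0.0024). The MITF/TFE3 DKO, at 11.6, 11.4 and 12.8 CPM, and the TKO, at 13.4, 12.6 and 11 CPM, did not pass, with changes of 0.20 and 0.25. Loss of MITF raised Sesn3 by 0.73 ± 0.18 where TFEB was absent and TFE3 present (adjusted p = 0.0012, background 56.5%). The MITF/TFEB DKO exceeded the MITF/TFE3 DKO by 0.47 ± 0.18 (adjusted p = 0.031, background 47.9%), a call lost without MITF/TFEB DKO replicate 1 (0.29, adjusted p = 0.21) or MITF/TFE3 DKO replicate 1 (0.46, adjusted p = 0.074) or 2 (0.44, adjusted p = 0.078), and with the 6 libraries of these lines alone (adjusted p = 0.05, just above the threshold before rounding).

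The make-up of the summed sestrin reads was read in each line. Sesn2 made up 35.1% ± 3.98 (SD, n = 3) of the summed sestrin CPM in the MITF KO and 30.6% ± 8.98 in parental cells, but 12.6% ± 1.49 for the TKO and 15.2% ± 2.96 for the MITF/TFEB DKO. Sesn1 made up 13.9% ± 3.11 in the MITF KO and 30.2% ± 5.03 in the TKO. The summed level was 19.5 ± 1.84 CPM in parental cells, 32 ± 3.52 in the MITF KO and 21.6 ± 1.69 in the TKO. No test was run on these shares.

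Castor1, which encodes an arginine sensor, passed in 1 of its 7 tests against parental cells, in the MITF/TFE3 DKO. It read 8.84, 7.54 and 6.12 CPM there, against 4.18, 2.50 and 4.40 in parental cells, with no overlap. The rise was 0.87 ± 0.22 (adjusted p = 0.0027). The TKO, at 4.95, 3.19 and 3.18 CPM, lay 0.84 ± 0.22 below the MITF/TFE3 DKO (log2, adjusted p = 0.0026, background 50.8%), and the MITF/TFEB DKO, at 3.53, 3.69 and 3.90 CPM, likewise differed by −0.84 ± 0.22 (adjusted p = 0.0029). Against the MITF KO the MITF/TFE3 DKO was higher by 0.62 ± 0.22 (adjusted p = 0.030), which was lost without MITF KO replicate 1 or 3 or MITF/TFE3 DKO replicate 1 or 2 (0.51 to 0.61, adjusted p from 0.059 to 0.13). Against the TFE3 KO it was higher by 0.69 ± 0.22 (adjusted p = 0.013), which was lost without TFE3 KO replicate 2 (0.59, adjusted p = 0.058) or MITF/TFE3 DKO replicate 1 (0.58, adjusted p = 0.064). Its lowest library held 55 reads.

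Deptor, which encodes a direct inhibitor of mTOR in both of its complexes, was highest in the MITF KO and the MITF/TFE3 DKO, with the TFE3 KO next. Its libraries read 201, 206 and 185 CPM in parental cells, 373, 461 and 418 in the MITF KO, and 325, 454 and 381 in the MITF/TFE3 DKO. Where both MITF and TFEB were lacking, the MITF/TFEB DKO read 201, 182 and 170 CPM. The TKO read 176, 166 and 167 CPM. The MITF KO and the MITF/TFE3 DKO stood above all other lines with no overlap. Deptor rose by 1.07 ± 0.12 in the MITF KO (adjusted p = 1.5e-07) and by 0.96 ± 0.12 in the MITF/TFE3 DKO (adjusted p = 1.0e-06). The difference between these lines was −0.12 (95% confidence interval −0.36 to 0.13). The difference from parental cells was −0.10 (−0.34 to 0.14) for the MITF/TFEB DKO and −0.22 (−0.46 to 0.03) for the TKO, neither of which passed, although the TKO passed when only its own and the parental libraries were fitted (adjusted p = 0.0063).

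Deptor was lower wherever TFEB was lost from cells without MITF. It fell by 1.17 ± 0.12 from the MITF KO to the MITF/TFEB DKO (log2, adjusted p = 2.2e-08) and by 1.17 ± 0.12 from the MITF/TFE3 DKO to the TKO (adjusted p = 1.9e-08). In cells with MITF, the TFEB KO read 231, 194 and 235 CPM and the TFEB/TFE3 DKO 220, 199 and 230 CPM, and both overlapped with parental cells. The TFE3 KO, at 312, 238 and 239 CPM, was above all parental libraries, with a change of 0.40 ± 0.12 (adjusted p = 0.027). This call was lost without any of the 3 parental libraries (0.35 to 0.43, adjusted p from 0.055 to 0.095) or without TFE3 KO replicate 1 (0.27, adjusted p = 0.12), and in the 6 libraries alone (adjusted p = 0.11). Loss of MITF on top of TFEB and TFE3 lowered Deptor by −0.34 ± 0.12 (adjusted p = 0.016), a call lost without TFEB/TFE3 DKO replicate 3 (−0.30, adjusted p = 0.065).

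Akt1s1, which encodes the raptor-bound inhibitor PRAS40, stayed within 8.96 to 16.1 CPM over all 24 libraries. None of its 7 changes against parental cells passed, and they ran from −0.32 to 0.16. Between KO lines it passed in 2 comparisons. The MITF/TFEB DKO read 15.3, 14.7 and 14.3 CPM. The MITF KO read 10.6, 11.1 and 11.3, and the MITF/TFE3 DKO read 10.0, 11.9 and 8.96. The MITF/TFEB DKO libraries were above all of the others. The differences were 0.39 ± 0.15 from the MITF KO (adjusted p = 0.032), lost on leaving out any of the 6 libraries (0.37 to 0.41, adjusted p from 0.054 to 0.081), and 0.49 ± 0.15 from the MITF/TFE3 DKO (adjusted p = 0.0091), lost without MITF/TFE3 DKO replicate 3 (0.40, adjusted p = 0.052).

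Ddit4, which encodes the stress-induced REDD1, was the gene of the 9 with the largest changes. Its libraries read 63.0, 57.4 and 46.8 CPM in parental cells and 241, 258 and 233 in the MITF KO. The MITF/TFE3 DKO read 171, 204 and 177 CPM. The MITF/TFEB DKO read 144, 176 and 165, and the TKO read 122, 118 and 117. Every library without MITF was above every library with it, the nearest being 117 CPM in the TKO and 105 CPM in the TFEB/TFE3 DKO. Ddit4 rose by 2.12 ± 0.16 in the MITF KO (adjusted p = 2.9e-10). The rise was 1.71 for the MITF/TFE3 DKO (adjusted p = 1.7e-08), 1.52 for the MITF/TFEB DKO (adjusted p = 3.4e-08) and 1.09 for the TKO (adjusted p = 4.4e-06).

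Among the lines without MITF the mean level of Ddit4 was 244 CPM for the MITF KO, 184 for the MITF/TFE3 DKO, 161 for the MITF/TFEB DKO and 119 for the TKO. Against the MITF KO the MITF/TFEB DKO fell by 0.60 ± 0.16 (adjusted p = 0.0036) and the TKO by 1.03 ± 0.16 (adjusted p = 1.4e-05). The fall of 0.41 ± 0.16 in the MITF/TFE3 DKO (adjusted p = 0.048) lay at the threshold. It did not pass by edgeR (adjusted p = 0.051) or without any of the 3 MITF KO libraries or MITF/TFE3 DKO replicate 1 or 3 (−0.44 to −0.36, adjusted p from 0.069 to 0.15). The TKO was lower than the MITF/TFE3 DKO by −0.62 ± 0.16 (adjusted p = 0.0025). In cells with MITF the order was different. The TFE3 KO read 33.4, 30.6 and 41.3 CPM and the TFEB KO 76.9, 40.7 and 45.7, whereas the TFEB/TFE3 DKO read 105, 98.4 and 88.5 and lay above both and above parental cells. The TFEB/TFE3 DKO rose by 0.80 ± 0.16 (adjusted p = 0.0024) against parental cells, by 1.45 ± 0.16 (adjusted p = 8.4e-07) against the TFE3 KO and by 0.88 ± 0.16 (adjusted p = 0.0043, background 2.18%) against the TFEB KO. The last of these was lost in a fit of the 6 libraries alone (adjusted p = 0.32). The fall of 0.65 ± 0.16 in the TFE3 KO (adjusted p = 0.0092) was lost without parental replicate 1 (−0.56, adjusted p = 0.059) or TFE3 KO replicate 2 (−0.56, adjusted p = 0.062), and in the 6 libraries alone (adjusted p = 0.06).

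Tsc1, which encodes the scaffold of the TSC complex, was lower without MITF, and Tsc2, which encodes its GTPase-activating subunit, did not pass in any comparison. Tsc1 read 34.8, 34.2 and 33.2 CPM in parental cells and 24.5, 30.6 and 22.1 in the MITF KO. The MITF/TFEB DKO read 28.5, 20.9 and 22.1, and the TKO read 18.5, 17.3 and 20.2. All of these KO libraries were below the parental ones, and those of the TKO were below every other library measured. Tsc1 fell by 0.84 ± 0.14 in the TKO (adjusted p = 2.9e-05) and by 0.51 ± 0.14 in the MITF/TFEB DKO (adjusted p = 0.0042). The fall of 0.40 ± 0.14 in the MITF KO (adjusted p = 0.029) was lost without any of the 3 parental libraries or MITF KO replicate 1 or 3 (−0.42 to −0.30, adjusted p from 0.054 to 0.14). The MITF/TFE3 DKO, at 23.8, 33.4 and 25.4 CPM, changed by −0.31 (adjusted p = 0.084), and without its replicate 2 by −0.45 (adjusted p = 0.019). Loss of MITF lowered Tsc1 by 0.63 ± 0.14 where TFEB was absent (adjusted p = 0.00068) and by 0.85 ± 0.14 where TFEB and TFE3 were absent (adjusted p = 2.3e-05). Where TFE3 was absent the fall of 0.41 (adjusted p = 0.024) was lost without TFE3 KO replicate 1 or 3 or MITF/TFE3 DKO replicate 1 or 3 (−0.40 to −0.31, adjusted p from 0.055 to 0.12) and in the 6 libraries alone (adjusted p = 0.08). The TKO was below the MITF/TFE3 DKO by −0.53 ± 0.14 (adjusted p = 0.0037) and below the MITF KO by −0.43 ± 0.14 (adjusted p = 0.015), the latter lost without MITF KO replicate 2 (−0.31, adjusted p = 0.11) or TKO replicate 2 (−0.38, adjusted p = 0.06).

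Tsc2 libraries ran from 20.1 to 30.8 CPM. Its changes against parental cells were all between 0.01 and 0.30, the largest in the MITF KO at 29.3, 27.4 and 28.7 CPM against 24.9, 23.4 and 20.6. Those groups did not overlap, and the change passed when limma was fitted to these 6 libraries alone (adjusted p = 0.035). The 3′ end of Tsc2 overlaps Pkd1 on the opposite strand, so its counts are uncertain unless strand was used in counting, which is not given in the sources used here. The other 8 genes had no overlapping neighbour within 500 bases of the 3′ end.

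The average of the 4 lines without MITF against the 4 lines with it summarizes their difference across backgrounds. All lines without MITF derive from the same MITF KO cells, so these p-values do not measure repeated losses of MITF. Of the 9 genes 5 passed, where 68.8% of all genes did. Ddit4 was higher by 1.59 ± 0.08 (adjusted p = 2.8e-14), Sesn1 by 0.52 ± 0.12 (adjusted p = 0.00049), Sesn3 by 0.43 ± 0.09 (adjusted p = 0.00016) and Deptor by 0.26 ± 0.06 (adjusted p = 0.00050), and Tsc1 was lower by −0.57 ± 0.07 (adjusted p = 2.2e-07). Sesn2 averaged 0.12 ± 0.12 (adjusted p = 0.37). This combines rises with TFEB and TFE3 present (0.84) and with only TFE3 absent (0.76), a change of −0.21 that did not pass with only TFEB absent, and a fall with both absent (−0.91).

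Whether the response to MITF loss depended on the relatives of MITF was tested as a difference of differences. The change on MITF loss in cells without TFEB and TFE3 (TKO against TFEB/TFE3 DKO) was compared with that in cells with both (MITF KO against parental). Of the 9 genes 3 passed, all downwards. Of all genes 41.4% passed, with 19.5% of all genes passing downwards and 21.9% upwards. For Sesn2 the change went from 0.84 with both factors to −0.91 without, a difference of −1.75 ± 0.33 (adjusted p = 0.00020). For Deptor it went from 1.07 to −0.34, a difference of −1.42 ± 0.17 (adjusted p = 5.0e-07). For Ddit4 it went from 2.12 to 0.29, a difference of −1.83 ± 0.23 (adjusted p = 1.1e-06).

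For Ddit4 both ends of this comparison moved. Its level in the TFEB/TFE3 DKO was above parental cells and its level in the TKO was below the MITF KO, and the remaining change of 0.29 between the TKO and the TFEB/TFE3 DKO did not pass in the fit of all libraries (95% confidence interval −0.04 to 0.62), though it did with the libraries of those lines alone (adjusted p = 0.0090). The tests with Tsc1 and Sesn3 as the readout did not pass in all libraries, and they did in the 12 libraries of the 4 lines alone (Sesn3 −0.59, adjusted p = 0.025; Tsc1 −0.45, adjusted p = 0.05, just under the threshold before rounding).

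**Figure D3:**
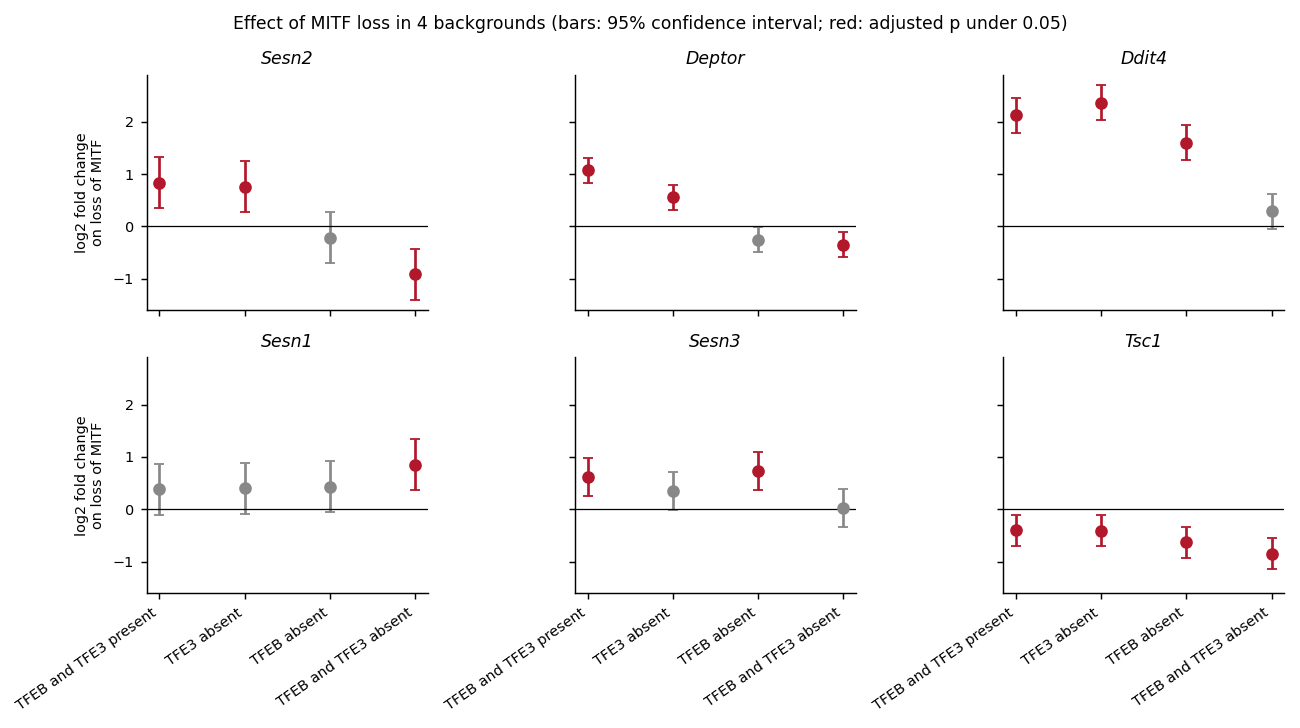
Log2 fold change (CPM + 1) on loss of MITF in cells with TFEB and TFE3, without TFE3, without TFEB and without both, for 6 genes; points are limma estimates from 3 libraries against 3, bars the 95% confidence interval, and red an adjusted p under 0.05. Sesn2 goes from 0.84 to −0.91 and Deptor from 1.07 to −0.34 across the backgrounds, and Tsc1 is below 0 in all 4.

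One factor at a time, the effect of TFEB loss differed between cells without and with MITF for Deptor, by −1.32 ± 0.17 (adjusted p = 1.3e-06), and for Sesn2, by −1.05 ± 0.33 (adjusted p = 0.016), where 35.1% of all genes passed. The Sesn2 call was lost without MITF KO replicate 2 (−0.91, adjusted p = 0.051) or MITF/TFEB DKO replicate 2 (−0.88, adjusted p = 0.055). The same value read the other way says that MITF loss changed Deptor by 1.07 with TFEB present and by −0.25 with TFEB absent. Ddit4 differed by −0.52 ± 0.23 (adjusted p = 0.08), with −0.70 to −0.25 when each library was left out in turn, and passed without TFEB KO replicate 2 (−0.70, adjusted p = 0.014). The effect of TFE3 loss differed by −0.52 ± 0.17 for Deptor (adjusted p = 0.030, background 20.2%). That call was lost without parental replicate 3, MITF KO replicate 2 or 3, TFE3 KO replicate 1 or MITF/TFE3 DKO replicate 1 (−0.51 to −0.39, adjusted p from 0.054 to 0.10), and with the 12 libraries of these lines alone (adjusted p = 0.067). For Sesn2 the same difference was −0.08 (95% confidence interval −0.76 to 0.61).

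A further difference was tested after the values had been seen: the effect of TFEB loss without TFE3 against its effect with TFE3, in cells with MITF. Ddit4 differed by 1.53 ± 0.23 (adjusted p = 7.9e-05, background 12.4%), since TFEB loss alone changed it by −0.08 and TFEB loss on top of TFE3 loss by 1.45. Sesn1 differed by −1.05 ± 0.33 (adjusted p = 0.041), which was lost without parental replicate 1 or 2, TFE3 KO replicate 2, TFEB KO replicate 2 or TFEB/TFE3 DKO replicate 1 or 3 (−1.08 to −0.80, adjusted p from 0.065 to 0.14), with a pseudocount of 5 (−0.58, adjusted p = 0.052) and with the 12 libraries alone (adjusted p = 0.14).

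The TKO and the MITF/TFEB DKO, which differ by TFE3, were separated for none of the 9 genes in limma (0 of 9, background 12.4%), with 4 of 9 at an unadjusted p under 0.05 and 0 by edgeR. The 4 were Sesn2 (−0.49), Sesn3 (−0.43), Ddit4 (−0.43, adjusted p = 0.086) and Tsc1 (−0.33), all lower in the TKO. The share of all genes at an unadjusted p under 0.05 was not counted, so nothing particular to the members is read from these 4. Ddit4 passed when these 6 libraries were fitted alone (adjusted p = 0.0086). The TKO and the MITF/TFE3 DKO, which differ by TFEB, were separated for 5 of 9, all lower in the TKO (24.2% of all genes were lower), namely Sesn2 (−0.86, adjusted p = 0.0036), Deptor, Ddit4, Tsc1 and Castor1.

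Changes of neighbouring genes were read as a measure of change along the chromosome, since each KO line is a clone. Neighbours were up to 100 genes on both sides in chromosome order, among genes with a mean of at least 5 CPM. Their median log2 change ran from −0.31 to 0.28 over the 9 genes and 7 lines. For Akt1s1 in the MITF/TFE3 DKO the neighbours were at −0.31 and the gene at −0.32, and for Tsc1 in the MITF KO they were at −0.22 and −0.40. Around Ddit4 in the MITF/TFE3 DKO they were at 0.28, with the gene at 1.71, and around Deptor in the same line at −0.25, opposite to its rise of 0.96. The part of such regional shifts in the results was not tested.

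The other genes of the pathway were read by list. Counts are given against parental cells, for the lines without MITF first the MITF KO, then the MITF/TFE3 DKO, next the MITF/TFEB DKO and last the TKO. Over all genes 20.1%, 20.2%, 28.8% and 28.3% rose in these lines and 17.8%, 21.7%, 27.3% and 27.9% fell, and nothing particular to a list is read from its counts. Of 13 further brakes on mTORC1 (GATOR1 and KICSTOR subunits, Castor2 and others) 11 were measured. Of these 1, 3, 2 and 0 rose and 0, 1, 4 and 4 fell, with medians of −0.01, −0.03, 0.09 and 0.02 against 0.00, 0.02, 0.01 and 0.01 over all genes. All genes that passed in either direction were 37.8%, 41.9%, 56.1% and 56.2%. Depdc5, a GATOR1 subunit, fell in the MITF/TFE3 DKO (−0.63), the MITF/TFEB DKO (−0.69) and the TKO (−0.69). Castor2, the paralogue of Castor1, rose by 0.62 in the MITF/TFEB DKO, where Castor1 changed by 0.03. Ddit4l, the paralogue of Ddit4, was singled out after its values were seen: it rose by 2.65 in the MITF/TFE3 DKO, by 1.30 in the MITF/TFEB DKO and by 0.92 after loss of MITF alone, fell by 1.14 in the TFE3 KO and by 1.14 in the TFEB KO, and was at 0.02 in the TKO.

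Of the 5 GATOR2 genes, whose products the sestrins and CASTOR1 bind, 1 rose and 1 fell in the TKO, and likewise in the MITF/TFEB DKO, where 56.2% and 56.1% of all genes passed. With the MITF/TFEB DKO given first, these were Mios (0.64 and 0.56) and Wdr59 (−0.66 and −0.73). Of the mTOR complex genes 9 were measured, and 1 rose in each line while 3, 2, 5 and 5 fell (medians 0.17, 0.17, −0.26 and −0.36), beside 37.8%, 41.9%, 56.1% and 56.2% of all genes passing. Prr5, which encodes an mTORC2 subunit, fell by 2.03 in the TKO, by 1.66 in the MITF/TFEB DKO and by 1.63 after loss of MITF alone. Rictor, the defining subunit of mTORC2, fell by 0.81 and 0.63 in the first 2 of these lines. Mtor itself did not pass in any line, at −0.21 to 0.25 (named after its values were seen).

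Of 14 growth factor input genes, 6, 3, 9 and 7 rose and 0, 5, 1 and 1 fell, with medians of 0.27, −0.01, 0.39 and 0.26, where 20.1%, 20.2%, 28.8% and 28.3% of all genes rose. In the last 2 of these lines Irs1, an insulin receptor substrate, rose by 2.36 and 2.53, Pik3r1, a PI3K regulatory subunit, by 1.82 and 2.04, and Igf1r, the IGF receptor, by 1.4 and 1.56. In the MITF/TFE3 DKO Irs1 was at 0.06 and Igf1r at −0.37. Of 9 genes of AMPK, the energy sensor that activates TSC2, 0, 1, 2 and 2 rose and 2, 3, 4 and 2 fell. Prkaa1, a catalytic subunit, fell in all 4 lines without MITF, by 1.73 to 1.98 (−1.73 in the MITF KO, −1.98 in the TKO), and did not pass in the 3 others, at 0.11 to 0.18. Prkab2, a regulatory subunit, rose by 2.03 in the TKO, by 1.68 in the MITF/TFEB DKO and by 0.89 in the MITF/TFE3 DKO. Of 13 genes for proteins downstream of mTORC1, 3, 3, 2 and 2 rose and 1, 1, 7 and 5 fell (medians 0.05, 0.14, −0.22 and −0.12), where 17.8%, 21.7%, 27.3% and 27.9% of all genes fell. Eef2k, an elongation factor kinase that mTORC1 signalling restrains, rose by 0.86 in the MITF KO but fell by 1.14 in the TKO and by 1.01 in the MITF/TFEB DKO, and Lpin1 rose in all 4 lines without MITF (0.55 to 1.4). These are transcript levels, and no measure of mTOR activity was analysed here.

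Sesn2 and Ddit4 are known targets of ATF4, the transcription factor of the amino acid and stress response, and a list of 20 other genes of that response was read beside them. In the MITF KO 10 of the 18 measured rose and 1 fell, where 20.1% of all genes rose, with a median of 0.28 against 0.00 over all genes. In the TFEB/TFE3 DKO 9 rose and 0 fell, beside 4.72% of all genes higher and 4.09% lower. The MITF/TFE3 DKO had 8 higher and 3 lower, beside 20.2% and 21.7%. In the TFE3 KO 0 rose and 7 fell (median −0.29), beside 4.5% and 7.78%. In the MITF/TFEB DKO 2 rose and 13 fell (median −0.75), where 27.3% of all genes fell. The TKO had 1 higher and 13 lower (median −0.65), where 27.9% fell. Trib3, a pseudokinase induced by ATF4, changed by 1.10 in the MITF KO, by −1.51 when TFEB was lost too and by −2.27 in the TKO, and Chac1, a glutathione-degrading enzyme, by 1.21, −1.39 and −1.69. Atf4 transcript itself, singled out after its values were seen, changed by 0.44, −1.47 and −1.21. From the MITF KO to the MITF/TFEB DKO 17 of the 18 fell, where 23.9% of all genes fell, as Sesn2 and Ddit4 did. Ddit4 stayed above parental cells in both lines in which most of the list had fallen. The part of ATF4 in these changes, and that of the responses read next, was not tested.

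Sesn1 and Sesn2 are known targets of p53, and of 14 other such genes measured 9 rose and 0 fell after loss of MITF alone, 10 rose and 1 fell where TFE3 was lost too, 10 rose and 0 fell where TFEB was lost too, and 9 rose and 2 fell in the TKO. The medians were 0.41, 0.91, 0.67 and 0.54 in this order, and the shares of all genes that rose were 20.1%, 20.2%, 28.8% and 28.3%. Btg2, an antiproliferative gene, rose by 1.2, 1.55, 1.93 and 1.92 in these lines, and Trp53inp1 by 0.74, 1.56, 1.29 and 0.43. In the TFEB/TFE3 DKO 0 of the 14 rose and 6 fell, where 4.09% of all genes fell. Of 12 FOXO-related genes measured, 5, 7, 6 and 6 rose and 1, 3, 2 and 1 fell in the lines without MITF in the order above, with medians of −0.05, 0.71, 0.61 and 0.55. All genes that passed were 37.8%, 41.9%, 56.1% and 56.2%. Foxo3 rose in each, by 0.50, 0.73, 0.97 and 0.91.

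Of 15 hypoxia targets, a response in which Ddit4 takes part, 4, 3, 4 and 3 rose and 2, 3, 5 and 3 fell in these lines, with medians of 0.07, −0.06, 0.14 and −0.01, beside the same shares of all genes. In the TFEB/TFE3 DKO 5 rose and 0 fell, where 8.81% of all genes passed. Bnip3, a mitophagy receptor, rose by 0.72 in the MITF KO and by 1.69 in the TFEB/TFE3 DKO but fell by 0.63 in the MITF/TFE3 DKO (adjusted p = 0.042). Ndrg1 rose by 1.0, 0.37 and 0.71 in these 3 lines and was at −0.11 in the TKO.

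**Figure D4:**
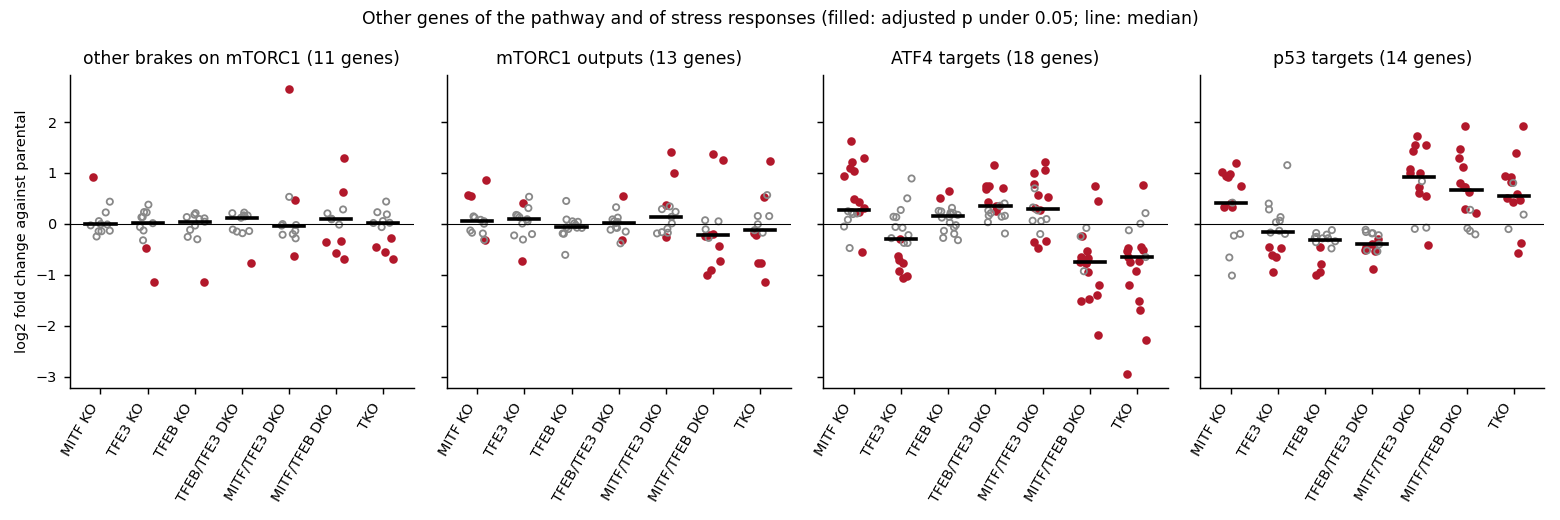
Log2 fold change against parental cells (vertical axis) of the measured genes of 4 lists in the 7 KO lines (horizontal axis); each point is a gene from 3 libraries against 3, filled red where the adjusted p was under 0.05, and the black line is the median of the list. The ATF4 list has medians of 0.28 in the MITF KO and −0.75 in the MITF/TFEB DKO, and the p53 list lies at 0.41 to 0.91 in the 4 lines without MITF.

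The genes most like each of the 3 most variable members were found by Pearson correlation of the 8 line means of log2(CPM + 1) over 9539 genes with a mean of at least 5 CPM. For Ddit4 they were Taz (0.98), Trim14 (0.98) and Fam135a (0.98). For Sesn2 they were B4galt7 (0.98), Ctps2 (0.96) and Atp6v0b (0.96), the last a subunit of the vacuolar proton pump. For Deptor they were Vps53 (0.99), Tcn2 (0.95) and Tars2 (0.95). These are descriptions over 8 points that share libraries, drawn from many genes, and are given with no test.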

How the data were processed

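Poly(A) RNA was profiled in 24 libraries by 3′ end sequencing. Per the labels and the submitters' processing notes, reads were checked with FastQC 0.11.9, trimmed with Trim Galore 0.6.5 and cutadapt 2.10, mapped with STAR 2.7.8a to mm39 and normalized with edgeR. The authors deposited 1 table of library-size normalized counts (CPM) for 12010 genes, a signal that is never negative. How reads were assigned to genes, with which gene models and with which filter is not given in the sources used here. The deposited signal summed to 933263 to 1081081 per library, not to the same total, so it was treated as CPM divided by normalization factors, and the planned test was kept. Integer reads were rebuilt from the spacing of the values (99.9% of values whole within 0.01 read).

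A single linear model of cell line, with a variance trend and 16 residual degrees of freedom, was fitted by limma 3.58.1 to log2(CPM + 1) of the 24 libraries. P-values were adjusted by Benjamini-Hochberg across all 12010 genes within each of 23 contrasts, and a call is an adjusted p under 0.05. Fold changes on this scale understate the change of low genes. Errors are SE for fold changes and SD for levels. At 18300902 to 26667877 reads a library, 1 read is worth 0.0364 to 0.0545 CPM, and counting errors cover the sampling of reads only. On simulated data for the MITF KO against parental cells limma called 98% of genes changed 2-fold and 0.0593% of unchanged genes among 12010. The simulation gave all genes and lines the same dispersion and changed only genes with a mean of at least 5 CPM, which is above that of Castor1. In the real libraries the spread between replicates differed between lines, so these rates may not hold for the members.

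Alternatives were edgeR 4.0.16 on the whole reads, pseudocounts of 0.25 and 5, a mean CPM of at least 5, median-of-ratios scaling, only the libraries compared, the replicate number as a block, and each library left out. The members and the gene lists were chosen with earlier results of these data known, and some members are named by the study from these libraries, so the counts are not independent evidence. From each list at most 4 genes are named, those with the largest change among genes past the threshold with a mean of at least 5 CPM, except where the text says otherwise. A gene that this rule selects is not reported here. Positions and sequences come from GRCm39 with GENCODE annotation vM39. R 4.3.3, Python 3.11.15, pandas 2.3.3 and matplotlib 3.10.9 were used. Protein sequences and the ChIP-seq, protein and human cell data were not used here.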

Additional observations from a re-analysis of the deposited data

Results flagged for a closer look

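These results were singled out because the effect of losing 1 factor differed between lines by a test of the difference itself (limma on log2(CPM + 1), 3 libraries a line, adjusted over all genes). The change on loss of MITF differed between cells without and with both TFEB and TFE3 by −1.751 ± 0.329 (SE) for Sesn2 (adjusted p = 0.0002), −1.4167 ± 0.1664 for Deptor (adjusted p = 5e-07) and −1.8292 ± 0.2268 for Ddit4 (adjusted p = 1.1e-06). The change on loss of TFEB differed between cells without and with MITF by −1.0489 ± 0.329 for Sesn2 (adjusted p = 0.016) and −1.3246 ± 0.1664 for Deptor (adjusted p = 1.3e-06). The Sesn2 difference no longer passed in 2 of the 12 fits that left out 1 library of these lines. The change on loss of TFE3 differed between cells without and with MITF by −0.5181 ± 0.1664 for Deptor (adjusted p = 0.03), which no longer passed in 5 of 12 such fits, nor in the 12 libraries of these lines alone (adjusted p = 0.067). In a difference added after the values were seen, the change on loss of TFEB differed between cells without and with TFE3 by 1.5299 ± 0.2268 for Ddit4 (adjusted p = 7.9e-05) and −1.0507 ± 0.333 for Sesn1 (adjusted p = 0.041). The Sesn1 difference no longer passed in 6 of 12 such fits, nor in the 12 libraries of these lines alone (adjusted p = 0.14). Each KO line was taken as 1 clone, so genotype and clone cannot be told apart.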

How the results depend on the processing

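Over the 23 comparisons, no member changed direction past the threshold under any alternative. EdgeR on the whole reads, a pseudocount of 0.25, the mean CPM filter (which leaves Castor1 out) and median-of-ratios scaling, which moved the median of all genes by at most 0.0112 (log2), kept the number of passing members within 1.5 times in all 23, and a pseudocount of 5 lowered it to 1 in the added difference of TFEB loss without and with TFE3. With only the libraries of the lines compared, the number passing was 0 in place of 3 for the TFE3 KO against parental cells, 0 in place of 1 for the TFEB/TFE3 DKO against the TFEB KO, 1 in place of 0 for the TKO against the MITF/TFEB DKO, 7 in place of 4 for the TKO against the MITF KO, 5 in place of 3 for MITF loss without against with TFEB and TFE3, 0 in place of 1 for TFE3 loss without against with MITF, and 1 in place of 2 for the added difference. The cause was not tested. With 1 library left out, the number passing ran from 0 to 3 for the TFE3 KO against parental cells, 1 to 3 for the MITF/TFE3 DKO against the MITF KO (4 with all), 2 to 5 for the MITF/TFE3 DKO against the TFE3 KO, 1 to 3 for the TFEB/TFE3 DKO against the TFE3 KO, 0 to 1 for TFE3 loss without against with MITF, and 1 to 3 for TFEB loss without against with MITF and for the added difference.

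Replicate numbers recur in every line, but libraries of the same number did not deviate together (mean correlation 0.0222, from −0.66 to 0.77, above 0.1 in 42 of 84 pairs), so they were not treated as pairs. With the replicate block, 5 members passed in the MITF KO as without it, and the one call that changed in any comparison was Ddit4 in the MITF/TFE3 DKO against the MITF KO (−0.41, adjusted p = 0.051). Depth limits Sesn1, Sesn2 and Castor1 most, with 48 to 55 reads in their lowest libraries.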
